A study of Mus musculus with 16 samples.

Results

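Nfatc1, Ppp3ca and Ppp3cb encode a transcription factor of the NFAT family and the catalytic A-alpha and A-beta subunits of calcineurin. They were taken as every probe set of the deposited table whose single platform gene symbol was one of these names. Each gene had 1 probe set, which gave 3 of the 12488 probe sets and 3 of the 8251 genes that the annotation names singly. The arrays measured RNA of CD4+CD8+ (double-positive) mouse thymocytes taken from fetal thymic organ culture, where explanted lobes of fetal thymus go on making T cells in a dish. There were 6 groups: on the NOD background, BDC2.5 transgenic cells at 16 h of added peptide (n = 3), BDC2.5 cells with no peptide (n = 3) and wild-type cells (n = 2), and the same groups with the same numbers on the B6g7 background. The BDC2.5 transgenes encode the receptor of a CD4 T cell clone that can cause diabetes. The NOD strain becomes diabetic through autoimmunity, while B6g7 is a C57BL/6 strain given the NOD form of the MHC. The peptide, its dose, any treatment of the wild-type lobes, the fetal age and the way the cells were isolated are not given in the sources used here. Arrays of a group are not said to come from separate litters or cultures, so the spread between them may be technical.

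When a T cell receptor binds its ligand, calcium is released from internal stores and then enters through the plasma membrane. Calcium and calmodulin activate calcineurin, a phosphatase made of a catalytic A subunit and a regulatory B subunit, and calcineurin strips phosphate from NFAT proteins in the cytoplasm so that they move into the nucleus. Kinases such as GSK3, DYRK and casein kinase 1 put the phosphate back, and ciclosporin and FK506 block calcineurin through cyclophilin and FKBP12. In thymocytes the pathway is needed for positive selection and takes part in the response to strong self-ligands. Nfatc1 differs from most of its family in that NFAT raises its transcription, whereas calcineurin itself is regulated mainly as an enzyme.

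Of 11 listed markers of double-positive thymocytes, 10 were measured, among them Rag1, Dntt, Cd4 and Cd8a. All 10 lay above the array's median intensity on 16 of 16 arrays. Thymocytes of other stages share many of these markers, so this does not tell double-positive cells from a thymocyte mixture. The 6 arrays with the highest number of each group (numbered 3 in the BDC2.5 groups, 2 in the wild-type groups) stand apart from the other 10, as an earlier analysis of these data had shown. The beta-actin signal of the 3' minus the 5' control probe set lay between 1.36 and 1.96 on the log2 scale in these 6 arrays and between 2.24 and 3.27 in the other 10. Each group holds 1 of these arrays, which balances the peptide and the strain comparisons. The array medians lay between 54.7 and 59.1 intensity units, and the table has no detection calls, so no gene can be said to be absent.

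Nfatc1 gave its highest readings in the peptide groups of both strains. In BDC2.5/NOD cells it read 80.4, 79.9 and 197 intensity units at 16 h of peptide, against 52.9, 64.2 and 76.8 without peptide. In BDC2.5/B6g7 cells it read 218, 161 and 579 at 16 h, against 89.3, 102 and 105 without peptide. Every array at 16 h lay above every array without peptide in each strain. Of all 12422 probe sets tested, 3.48% were separated upward in this way in B6g7, 2.33% in NOD and 0.33% (41 probe sets) in both. The arrays numbered 3 gave the highest value of each peptide group.

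**Figure D1:**
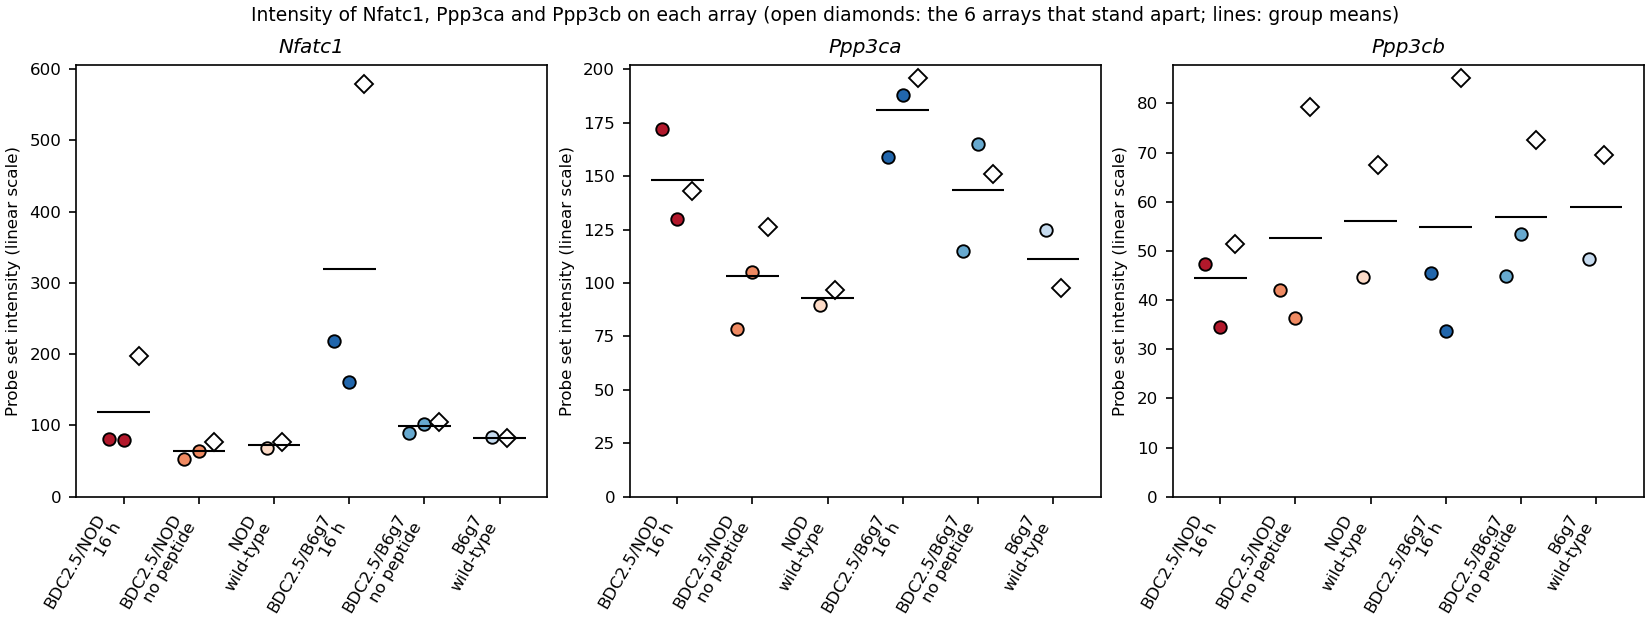
Probe set intensity (linear scale) of Nfatc1, Ppp3ca and Ppp3cb on each of 16 arrays, by group. Filled circles are the 10 other arrays, open diamonds the 6 arrays that stand apart, and lines group means. For Nfatc1 the peptide groups lie above their groups without peptide in both strains, with 579 as the highest value, and for Ppp3cb every diamond is the highest array of its group.

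The size of the Nfatc1 difference with peptide was large and poorly fixed, and it did not pass the test over all probe sets. In NOD the 16 h arrays averaged 119 ± 67.3 and the arrays without peptide 64.7 ± 12 (SD, n = 3 each), a log2 difference of 0.76 ± 0.41 (SE) or 1.69-fold, with a 95% interval of -0.12 to 1.63 (limma, adjusted p = 1). In B6g7 the 16 h arrays averaged 319 ± 227 and the arrays without peptide 98.6 ± 8.13 (SD, n = 3 each), a log2 difference of 1.47 ± 0.41 or 2.77-fold, with an interval of 0.60 to 2.35 (adjusted p = 0.934). Calls were made below an adjusted p of 0.05. In these comparisons limma called 0% of all probe sets in NOD and 0.00805% (1 probe set) in B6g7, and 0 of the 3 genes in either. By its p, Nfatc1 ranked 430 of 12422 in NOD and 39 in B6g7.

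The mean response over both strains gave Nfatc1 a log2 difference of 1.11 ± 0.29, which is 2.17-fold, with an interval of 0.50 to 1.73 (limma, adjusted p = 0.554). It ranked 39 by p where 0.0242% of probe sets (3) were called. With the array number as a block the adjusted p was 0.0657 over all arrays and 0.139 among the BDC2.5 arrays alone. Same-numbered arrays differed upward in 3 of 3 cases in each strain, as for 2.48% of all probe sets. The separation of the groups in each strain already fixed this count. In NOD these log2 differences were 0.60, 0.31 and 1.36 for the arrays numbered 1, 2 and 3, and in B6g7 they were 1.29, 0.66 and 2.47. The largest came from the arrays numbered 3 in both strains, and leaving out the 16 h array numbered 3 gave 0.33 in NOD and 0.93 in B6g7. Without the 6 arrays that stand apart the log2 difference was 0.46 in NOD and 0.97 in B6g7.

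Markers of other cells were read beside Nfatc1, which is also made by B cells and myeloid cells. The summed intensity of 12 of 12 listed myeloid and dendritic cell markers was 551 to 762 at 16 h and 540 to 830 without peptide in NOD, and 740 to 1251 at 16 h and 616 to 769 without peptide in B6g7. The value of 1251 belonged to the B6g7 16 h array numbered 3, the array with the highest Nfatc1. On that array Ctss, which encodes the protease cathepsin S, read 697. Leaving out Ctss was chosen after its value was seen. The sums were then 614, 582 and 554 at 16 h and 531, 550 and 481 without peptide in B6g7. Every peptide array was then higher, by as little as 554 against 550. With Ctss the groups overlapped (740 at 16 h against 769 without peptide). In NOD the sums without Ctss were 513, 492 and 507 at 16 h and 532, 482 and 567 without peptide. Of these 12 markers, Csf1r, C1qb, Adgre1, Itgam and Fcer1g lay below the array's median on all 16 arrays, and Lyz2, Tyrobp and Itgax on all but 1. C1qa and Cd14 lay above it on all 16, Ctss on 13 and Spi1 on 12. The sum of 5 measured B cell markers (of 6 listed) was 367 to 433 at 16 h and 382 to 506 without peptide in NOD, and 441 to 496 at 16 h and 361 to 469 without peptide in B6g7. The sum of 4 measured markers of NK and innate lymphocytes (of 6 listed) was higher on every peptide array in NOD, at 402, 358 and 498 at 16 h and 356, 294 and 339 without peptide. In B6g7 it was 491, 337 and 652 at 16 h and 576, 514 and 381 without peptide, and 652 again belonged to the array numbered 3. Most of this sum came from Gzma, which read 142 to 558 over all arrays. Ncr1 and Klrd1 lay below the array's median on all 16 arrays and Cd160 on all but 1. The erythroid and the epithelial and stromal sums overlapped between peptide states in both strains. The sum of the 10 double-positive markers was lower on every 16 h array, at 9948 to 11339 with peptide against 11750 to 15536 without in NOD, and 7781 to 12126 with peptide against 13106 to 13629 without in B6g7. The part of these cell mixtures in the Nfatc1 values was not tested, and in bulk RNA fewer cells of a type and less RNA per cell cannot be told apart.

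At 16 h of peptide Nfatc1 read lower in NOD than in B6g7 thymocytes. The difference was not called in the fit of all arrays, and whether it was called turned on how the array numbers and single arrays were treated. The NOD arrays read 80.4, 79.9 and 197 and the B6g7 arrays 218, 161 and 579, so that the groups overlapped through 1 array of each. Within the same array number, NOD was lower in 3 of 3 cases, by log2 differences of -1.44, -1.01 and -1.56 for the arrays numbered 1, 2 and 3, as were 16.1% of all probe sets. The log2 difference was -1.34 ± 0.41, a ratio of 0.396, with an interval of -2.21 to -0.46, and it was not called without the block (limma, adjusted p = 0.413). With the replicate block over all arrays it was -1.34 ± 0.27, interval -1.92 to -0.75, and was called (adjusted p = 0.0363). That block takes arrays of the same number as paired, which was assumed and not shown. It also joins wild-type arrays to BDC2.5 arrays of the same number. Their deviations correlated for number 1 (r = 0.695 in B6g7 and 0.678 in NOD, across probe sets). This cannot show pairing. The deviations of the 2 wild-type arrays of a strain offset each other, and 1 of the 2 stands apart. For number 2, where only the wild-type array stands apart, r was 0.058 in B6g7 and -0.499 in NOD. With the block among the BDC2.5 arrays alone, a setting chosen after seeing the data, it was -1.34 ± 0.29 and was not called (adjusted p = 0.057). Without the 6 arrays that stand apart it was -1.23 ± 0.20 and was called (adjusted p = 0.0403). The share of probe sets called was 0.491% in the fit with no block, 1.04% with the block over all arrays, 1.26% with the block among the BDC2.5 arrays and 0.29% without the 6 arrays. The call with the block over all arrays was lost when any of 5 of the 6 arrays at 16 h was left out. The adjusted p was then 0.129 without the B6g7 array numbered 1, 0.178 without that numbered 3, and 0.181, 0.144 and 0.0681 without the NOD arrays numbered 1, 2 and 3. It was 0.0163 without the B6g7 array numbered 2. Among the BDC2.5 arrays alone it was 0.0256 without that array and 0.109 to 0.257 without any other. The B cell marker sums at 16 h were 399, 433 and 367 in NOD and 478, 496 and 441 in B6g7. The myeloid sums without Ctss were 513, 492 and 507 in NOD and 614, 582 and 554 in B6g7. In both lists every NOD array was lower. With Ctss the myeloid sums overlapped between strains, as did the other marker sums. Their part in the Nfatc1 strain difference was not tested.

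**Figure D2:**
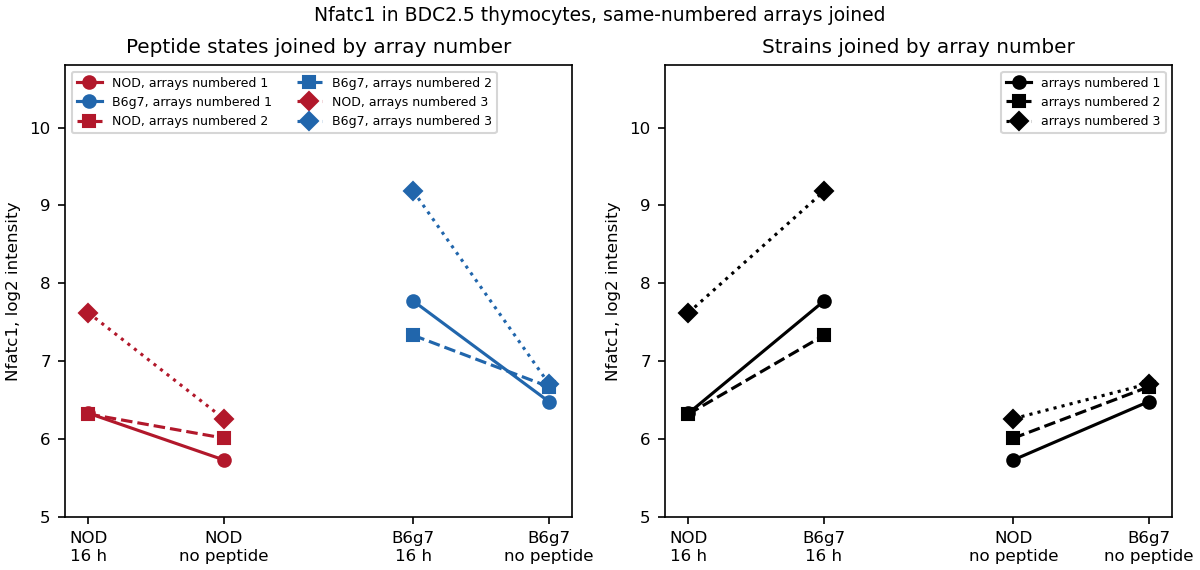
Log2 intensity of Nfatc1 in BDC2.5 thymocytes, with arrays of the same number joined; circles and solid lines are arrays numbered 1, squares and dashed lines 2, diamonds and dotted lines 3. On the left the 16 h array lies above the array without peptide in 6 of 6 lines, and on the right the NOD array lies below the B6g7 array in 6 of 6.

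A lower NOD level of Nfatc1 was also read without peptide. The 3 NOD arrays, at 52.9, 64.2 and 76.8, lay below the 3 B6g7 arrays, at 89.3, 102 and 105, as did 2.37% of all probe sets. The log2 difference was -0.62 ± 0.41, with an interval of -1.50 to 0.25, and it was not called (limma, adjusted p = 1, against 0.266% of probe sets called). In wild-type cells, which carry no transgene, the NOD arrays read 68.7 and 77.3 and the B6g7 arrays 84.3 and 81.7. Both NOD arrays were again lower, as for 14.3% of probe sets, with a log2 difference of -0.19 ± 0.50 (adjusted p = 1, 0.0886% of probe sets called). The comparisons with and without peptide use different arrays.

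Whether the Nfatc1 response itself was smaller in NOD was not settled. The NOD response minus the B6g7 response was -0.71 ± 0.58, with an interval of -1.95 to 0.52 (limma, adjusted p = 1), and 0% of probe sets were called in this comparison. Without the B6g7 16 h array numbered 3, which read 579, the difference was -0.17 ± 0.44.

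No difference of Nfatc1 was called between BDC2.5 cells without peptide and wild-type cells, whose treatment is not given, and the intervals were wide. In NOD the transgenic arrays read 52.9 to 76.8 and the wild-type arrays 68.7 and 77.3 (log2 difference -0.19 ± 0.46, interval -1.17 to 0.79, limma adjusted p = 0.999). In B6g7 the transgenic arrays, at 89.3 to 105, lay above the wild-type arrays, at 81.7 and 84.3, as for 4.15% of probe sets (log2 difference 0.25 ± 0.46, interval -0.73 to 1.22, adjusted p = 1). Of all probe sets, 0.0564% were called in NOD and 0.0805% in B6g7, and 0 of the 3 genes. Each wild-type group has 1 of 2 arrays that stand apart and each transgenic group 1 of 3, so these comparisons were not balanced for them.

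Ordered by mean intensity, the Nfatc1 groups ran from BDC2.5/B6g7 at 16 h (319) and BDC2.5/NOD at 16 h (119) through BDC2.5/B6g7 without peptide (98.6), wild-type B6g7 (83.0) and wild-type NOD (73.0) to BDC2.5/NOD without peptide (64.7). Neighbours in this order overlapped in their arrays, except BDC2.5/B6g7 without peptide beside wild-type B6g7 and wild-type B6g7 beside wild-type NOD. Neither of these 2 steps was called.

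Ppp3ca, the calcineurin A-alpha gene, gave a smaller and tighter difference with peptide. In BDC2.5/NOD cells it read 172, 130 and 143 at 16 h, against 78.4, 105 and 126 without peptide. In BDC2.5/B6g7 cells it read 159, 188 and 196 at 16 h, against 115, 165 and 151 without peptide. The groups did not overlap in NOD and overlapped in B6g7, where the lowest 16 h array was below the highest array without peptide. The share of all probe sets separated upward in NOD was 2.33%. The log2 difference was 0.54 ± 0.20 in NOD, 1.45-fold, with an interval of 0.11 to 0.97 (limma, adjusted p = 1). It was 0.34 ± 0.20 in B6g7, 1.27-fold, with an interval of -0.09 to 0.78 (adjusted p = 1), and 0.19 without the array numbered 1 of the cells without peptide. The mean over both strains was 0.44 ± 0.14, 1.36-fold, with an interval of 0.14 to 0.75 (adjusted p = 0.998), and 6 of 6 same-numbered differences were upward, as for 2.48% of all probe sets. In NOD those were 1.13, 0.31 and 0.18 for the arrays numbered 1, 2 and 3, so that the array numbered 1 gave the most. The test of the difference between the responses, NOD minus B6g7, gave 0.20 ± 0.28 with an interval of -0.41 to 0.81 (adjusted p = 1).

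Ppp3ca also averaged lower in NOD than in B6g7 in each of the matched settings, without a call. Without peptide the NOD arrays averaged 103 ± 24.1 and the B6g7 arrays 144 ± 26.2 (SD, n = 3 each), a log2 difference of -0.49 ± 0.20 with an interval of -0.92 to -0.06 (limma, adjusted p = 1). Without the NOD array numbered 1 it was -0.30. At 16 h the NOD arrays averaged 148 ± 21.4 and the B6g7 arrays 181 ± 19.0 (SD, n = 3 each), a difference of -0.29 ± 0.20 (adjusted p = 1). These groups overlapped at 16 h, and NOD was lower in 2 of 3 same-numbered cases. The arrays numbered 1 went the other way, by a log2 difference of 0.11. In wild-type cells the arrays read 89.6 and 96.5 in NOD and 125 and 97.7 in B6g7, a difference of -0.25 ± 0.25 (adjusted p = 1), which was -0.07 without the B6g7 array that read 125. The BDC2.5 minus wild-type difference was 0.12 ± 0.22 in NOD and 0.36 ± 0.22 in B6g7. The arrays that stand apart did not separate for this gene: they lay between 96.5 and 196, and the other 10 between 78.4 and 188.

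**Figure D3:**
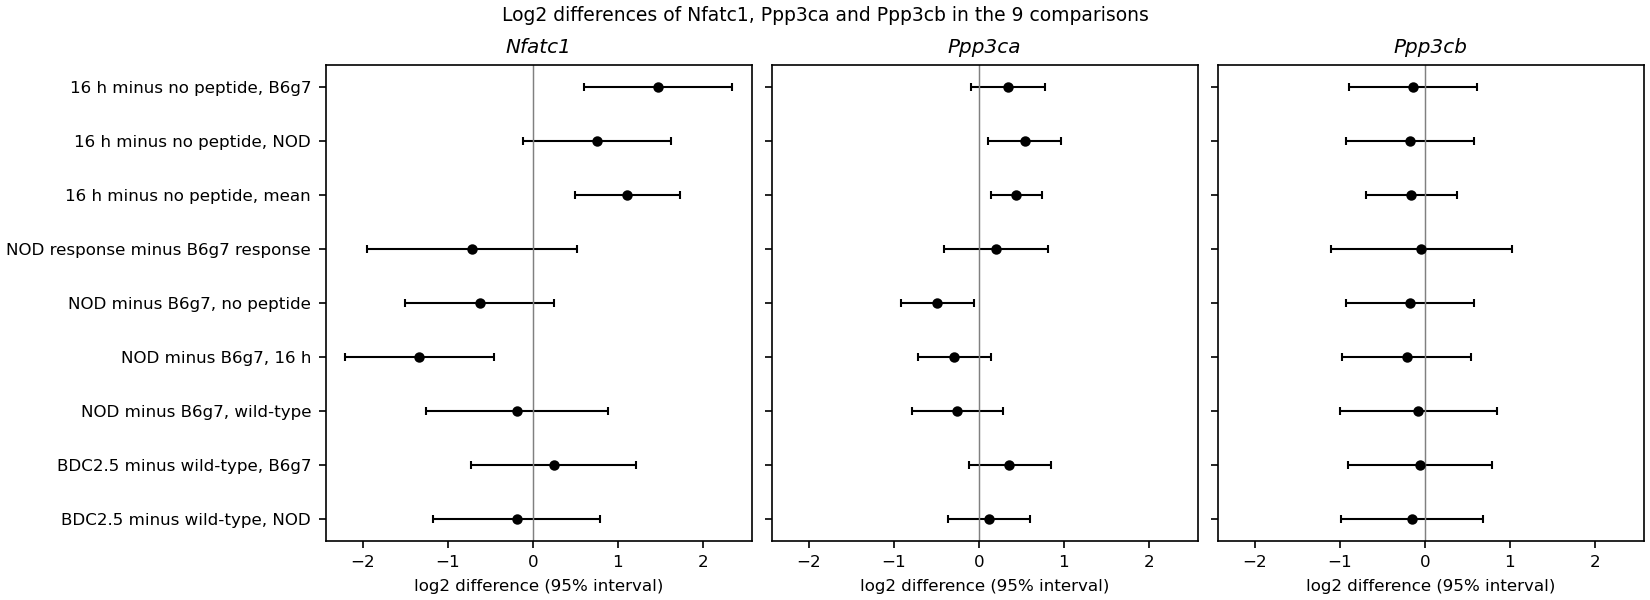
Log2 differences of Nfatc1, Ppp3ca and Ppp3cb in the 9 comparisons of the fit, with 95% intervals. The intervals of Nfatc1 lie above 0 for the B6g7 and the mean peptide response and below 0 for NOD minus B6g7 at 16 h, those of Ppp3ca lie above 0 for the NOD and the mean response and below 0 for NOD minus B6g7 without peptide, and those of Ppp3cb span 0 throughout.

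Ppp3cb, the calcineurin A-beta gene, showed no difference that could be read with peptide, strain or transgene, and its arrays were split in another way. At 16 h it read 47.3, 34.6 and 51.5 in NOD and 45.6, 33.7 and 85.2 in B6g7. Without peptide it read 42.1, 36.3 and 79.3 in NOD and 44.9, 53.5 and 72.6 in B6g7. The wild-type arrays read 44.6 and 67.5 in NOD and 48.4 and 69.5 in B6g7. The groups overlapped in all of these comparisons. The mean peptide response was -0.16 ± 0.25 on the log2 scale, with an interval of -0.69 to 0.38 (limma, adjusted p = 0.998), so that changes of up to 0.62-fold down or 1.30-fold up lie inside the interval. The 9 log2 differences of this gene lay between -0.21 and -0.04.

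The array that stands apart gave the highest Ppp3cb value in 6 of 6 groups, which 10.1% of all probe sets share. These 6 arrays lay between 51.5 and 85.2 and the other 10 between 33.7 and 53.5, a difference of 0.72 on the log2 scale. Ppp3r1, the gene of the regulatory calcineurin B subunit, was split the same way and more widely: 212 to 702 in the 6 arrays, 96.4 to 205 in the other 10, a log2 difference of 2.04. The 3' minus 5' beta-actin signal was lower in the same 6 arrays. Its part in the Ppp3cb and Ppp3r1 values was not tested. For Nfatc1 the 6 arrays were the highest of their group in 5 of 6 groups. Among the NOD arrays without peptide the one that stands apart read 76.8, against 52.9 and 64.2.

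**Figure D4:**
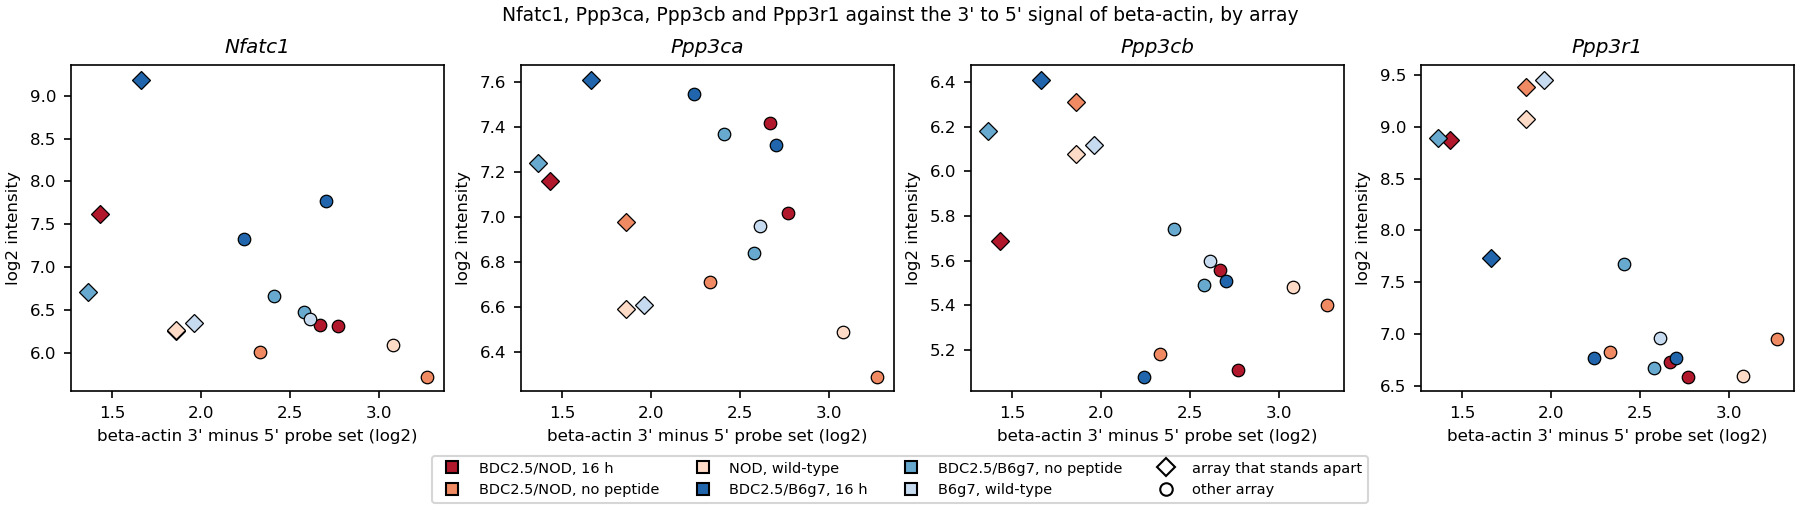
Log2 intensity of Nfatc1, Ppp3ca, Ppp3cb and Ppp3r1 against the beta-actin signal of the 3' minus the 5' control probe set (log2), 1 point per array, coloured by group; diamonds are the 6 arrays that stand apart. Ppp3r1 is higher on every array where the beta-actin difference is below 2. Ppp3cb is higher there on average, with an overlap (lowest 5.69 against highest 5.74 on the other arrays), and Ppp3ca shows no such split. The highest Nfatc1 value is a peptide array of B6g7, and the peptide arrays of the strains overlap.

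Other genes of the 2 families had no call in the mean peptide response. Nfatc2, the NFAT member abundant in resting T cells, had 3 probe sets. The brightest read 74.0 to 80.2 at 16 h and 80.3 to 84.3 without peptide in NOD, and 71.6 to 89.2 at 16 h and 72.0 to 83.4 without peptide in B6g7. Its other probe sets stayed between 10.6 and 30.9, so that a change there could be hidden by background. Nfatc3, the member most linked to double-positive thymocytes in the mouse, gave a mean peptide response of -0.18 ± 0.18 by its brighter probe set (limma, adjusted p = 0.998), and its dimmer probe set read 28.1 to 37.0 over all arrays. Ppp3cc, the A-gamma subunit gene, gave 0.18 ± 0.11 (adjusted p = 0.998). Ppp3r1 gave -0.49 ± 0.64 (adjusted p = 0.998), with the split between arrays inside its error.

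The steps before calcineurin were read from 2 lists. Of 16 genes of calcium release and entry, 7 were measured, and 3 were higher and 4 lower in the mean peptide response (median log2 -0.06, against -0.02 over all probe sets), with 0 called. The calcium-activated potassium channel gene Kcnn4 gave 0.22 ± 0.32, the calcium release channel gene Itpr2 -0.14 ± 0.30 and the calcium pump gene Atp2a2 -0.11 ± 0.24. Of 10 genes of calmodulin and its kinases, 5 were measured, and 0 were called. Camk2a gave 0.12 ± 0.16, Camk2b -0.08 ± 0.11 and Camk4, a calcium-dependent kinase of T cells, -0.06 ± 0.07.

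Genes that hold calcineurin or NFAT in check also showed no call. Of 17 calcineurin inhibitors, anchors and drug-binding partners, 11 were measured, and 5 were higher and 6 lower (median -0.01). Fkbp1a (FKBP12, the FK506 receptor) gave -0.63 ± 0.41, Fkbp5 -0.35 ± 0.17 and the scaffold gene Homer2 0.30 ± 0.11, each at limma adjusted p = 0.998. Rcan1, a feedback inhibitor whose transcription NFAT is known to raise, gave -0.06 ± 0.13 in NOD and 0.09 ± 0.13 in B6g7, and was chosen for mention once its values were known. Of 14 kinases and exporters that act against NFAT, 11 were measured, and 4 were higher and 7 lower, with 0 called. Mapk8 (JNK1) gave -0.14 ± 0.31, the kinase gene Gsk3a 0.11 ± 0.20 and the nuclear exporter gene Xpo1 0.07 ± 0.21.

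**Figure D5:**
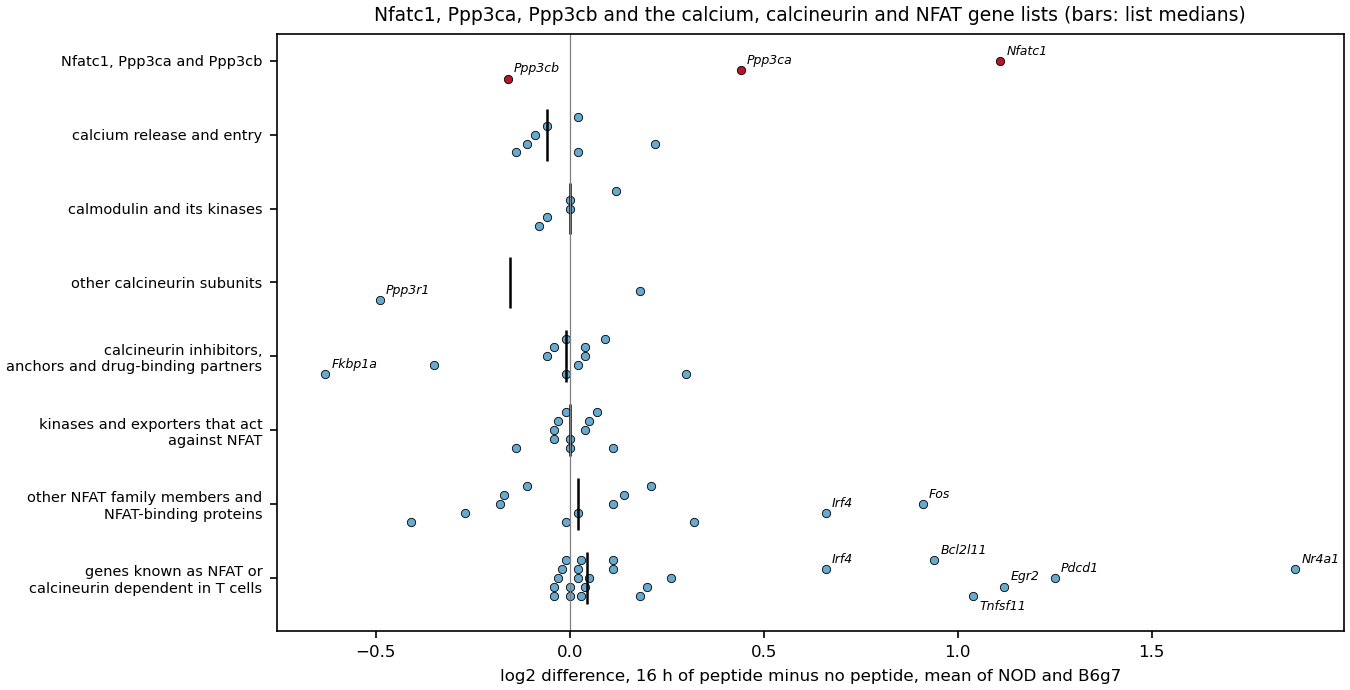
Log2 difference of 16 h of peptide minus no peptide, mean of NOD and B6g7, for Nfatc1, Ppp3ca and Ppp3cb and for 7 lists of calcium, calcineurin and NFAT genes, 1 point per gene; bars are list medians. The list medians lie between -0.15 and 0.04, with single genes such as Fkbp1a at -0.63 and Ppp3r1 at -0.49 further out. Nfatc1 at 1.11, which was not called, lies among the upper genes known to depend on NFAT or calcineurin, below Nr4a1 at 1.87.

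Genes known to depend on NFAT or calcineurin in T cells held the 1 call among the 71 measured genes of these lists, where 0.0242% of all probe sets were called in the mean response. Of 28 such genes, 24 were measured, and 17 were higher and 7 lower in the mean peptide response (median 0.04, against -0.02 over all probe sets). Nr4a1, whose product Nur77 is a nuclear receptor made early after T cell receptor engagement, rose by 1.87 ± 0.25 (limma, adjusted p = 0.0138). This call was lost without the B6g7 array numbered 2 or 3 of the cells without peptide (adjusted p = 0.0712 and 0.0649), without the B6g7 16 h array numbered 1 (0.0574) and without the NOD array numbered 1 of the cells without peptide (0.0705). It was also lost without the 6 arrays that stand apart, at 1.38 ± 0.20 (0.0808), and with intensities floored at 32, at 1.87 ± 0.26 (0.0812). The size stayed between 1.71 and 2.02 when single arrays were left out. The inhibitory receptor gene Pdcd1 gave 1.25 ± 0.27 (adjusted p = 0.326) and the early growth response gene Egr2 gave 1.12 ± 0.35 (adjusted p = 0.998). The cytokine genes Il2, Ifng, Il4 and Csf2, named after their values were seen, gave 0.03, 0.00, 0.04 and -0.03 from mean intensities of 10.4 to 18.4, far below the array medians. In the separate comparisons 16 were higher and 8 lower in NOD, where 42% of all probe sets were higher, and 20 were higher and 4 lower in B6g7, where 48% were. Over all probe sets 42.4% were higher in the mean response. Of 17 other NFAT family members and binding partners, 13 were measured, and 7 were higher and 6 lower (median 0.02). The AP-1 gene Fos gave 0.91 ± 0.32, Irf4 0.66 ± 0.15 (adjusted p = 0.407) and Mef2a -0.41 ± 0.26, with 0 called.

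The probe sets most like each gene over the 16 arrays were sought among 5578 probe sets of 1 gene above the median level, as a description. The points share arrays, array numbers and peptide groups. Nfatc1 was closest to Tnfrsf1b (TNF receptor 2), with a Pearson r of 0.971 over 16 arrays and 0.964 over the 10 arrays that do not stand apart. Next came Ccnd2 (cyclin D2) at 0.942, the RNA-binding protein gene Zfp36l1 at 0.907 and the death gene Bcl2l11 (Bim) at 0.903, with 0.867, 0.884 and 0.817 over the 10 arrays. Ppp3ca was closest to Il6st (the gp130 receptor chain) at 0.851, Pno1 at 0.844, Set at 0.817 and Srgn (serglycin) at 0.809, with 0.905, 0.898, 0.895 and 0.961 over the 10 arrays. Ppp3cb was closest to Tor1aip2, Fubp1, Rpl22 and Dcaf12, at 0.924, 0.916, 0.913 and 0.913, and these values were 0.663, 0.794, 0.528 and 0.471 over the 10 arrays. Between Nfatc1 and Ppp3ca the r was 0.724 over 16 arrays and 0.750 over the 10. Between Nfatc1 and Ppp3cb it was 0.316 and 0.008.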

How the data were processed

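Total RNA of 16 samples had been hybridised to Affymetrix mouse arrays. The deposited table holds 1 linear intensity per probe set and array; array medians show that the authors brought the arrays to a common level. No source used here says how they scaled, corrected and summarised the probes. The number of arrays limits the precision. Intensities were taken to log2 with no pseudocount, 66 control probe sets were left out and 12422 tested, of which 10833 named 1 gene, 396 several and 1193 none in the platform annotation. Chromosomal positions are not reported here.

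A linear model with 1 mean per group was fitted to all 16 arrays by limma 3.58.1 (eBayes, intensity trend) under R 4.3.3, and 9 comparisons were made. All tests were two-sided, with Benjamini-Hochberg adjustment over all probe sets within a comparison. A ± after a log2 difference is its standard error; after a mean intensity it is the SD. The fit was tested on simulated data with noise independent between arrays and no shift shared by the arrays that stand apart. That test does not bear on such a shift.

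The genes, lists and alternatives were chosen with earlier results of these data known. Each list used the brightest probe set per gene, and the 3 genes with the largest mean peptide response, or any called, were named. Likeness was the Pearson correlation of log2 values.

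Titles number the arrays. In the peptide and strain comparisons the deviations of same-numbered BDC2.5 arrays from their group means correlated at 0.165 to 0.842 in all 12 cases, across probe sets. These correlations cannot show that the numbers pair the arrays. The array that stands apart has the same number in every BDC2.5 group. Deviations within a group offset each other, so a shift shared by those arrays could give positive correlations for the other numbers too. Arrays of different numbers were not compared. Pairing by number was therefore an assumption of the block. Between wild-type and BDC2.5 arrays the correlation was 0.695 in B6g7 and 0.678 in NOD for number 1. For number 2, where only the wild-type array stands apart, it was 0.058 in B6g7 and -0.499 in NOD. The block was therefore also fitted to the BDC2.5 arrays alone. The labels do not say what a number stands for. Alternatives were quantile normalization, leaving out dim probe sets, an intensity floor of 32, no intensity trend, only the groups compared, the replicate block, and leaving out arrays.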

Additional observations from a re-analysis of the deposited data

How the results depend on the processing

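Over all alternatives, Nfatc1 and Ppp3ca kept their direction in the peptide and strain comparisons. The value for Nfatc1 at 16 h, NOD minus B6g7, became a call with the replicate block (-1.34) and without the arrays that stand apart (-1.23). With the block it was also called without the B6g7 array numbered 2 (-1.64). It ranged from -1.77 to -0.79 when single arrays were left out, with and without the block. The block over all arrays changed no other call of the 3 genes. That block joins wild-type arrays numbered 2, which stand apart, to BDC2.5 arrays numbered 2, which do not. It is therefore not suited to the transgene differences, where the block gave Nfatc1 -0.04 in B6g7 and -0.48 in NOD. With the block among the BDC2.5 arrays alone, chosen after seeing the data, none of the 3 genes was called in the peptide and strain comparisons, unless the B6g7 16 h array numbered 2 was also left out (Nfatc1 -1.65 at 16 h). Within the arrays numbered 3 alone, a setting chosen after seeing the data, the peptide response of Nfatc1 was 1.36 in NOD and 2.47 in B6g7, and that of Ppp3cb in NOD was -0.62.

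Ppp3cb had no stable direction. Without the arrays that stand apart it gave 0.05 for the NOD peptide response, 0.37 for the response difference (0.03 with quantile normalization), 0.04 for the strain difference at 16 h and 0.02 for the transgene difference in B6g7. Leaving out single arrays gave ranges of -0.40 to 0.17 for the NOD response, -0.51 to 0.16 for the B6g7 response, -0.34 to 0.01 for their mean and -0.33 to 0.34 for their difference. The strain differences ranged from -0.51 to 0.05 without peptide, -0.51 to 0.16 at 16 h and -0.38 to 0.22 in wild-type cells, and the transgene differences from -0.49 to 0.15 in NOD and -0.32 to 0.21 in B6g7. For Ppp3ca the transgene difference in NOD ranged from -0.04 to 0.31. Nfatc1 ranged from 0.33 to 0.98 in the NOD response and 0.93 to 1.85 in the B6g7 response, and Ppp3ca from 0.19 to 0.45 in the B6g7 response and 0.36 to 0.70 in the NOD response. The cause was not tested.

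The counts of probe sets called moved more. Leaving out single arrays gave 0 to 10 for the B6g7 response (1 with all arrays), 0 to 10 for the mean response (3), 15 to 24 for the strain difference without peptide (33), 15 to 42 at 16 h (61), 2 to 7 in wild-type cells (11), 6 to 8 for the transgene difference in B6g7 (10) and 2 to 5 in NOD (7). The other alternatives gave 0 to 3, 0 to 7, 0 to 91, 22 to 156, 0 to 32, 1 to 12 and 0 to 7 in the same order, and the NOD response and the response difference had 0 throughout. With all arrays, 207 and 147 probe sets had an unadjusted p under 0.05 in those 2. Both counts are fewer than evenly spread p-values would give, so a lack of calls there does not show a lack of change. With the replicate block over all arrays they were 574 and 452.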
